A study of Mus musculus with 40 samples.

Results

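Cytosolic ribosomal proteins, the protein subunits of the ribosomes that work in the cytosol, were examined in mouse liver after 90 days of GenX. Members were the genes whose whole symbol is Rpl or Rps, a number and at most a short suffix made of the letters a, l, x or y and digits, together with Rplp0, Rplp1 and Rplp2, and each gene was followed through its most counted probe. The rule found 80 genes among the 21448 in the table, 51 of the large and 29 of the small subunit. The filter on low counts left 76 of them for testing, 48 large and 28 small, so counts of members called in the main test cover 76 genes and not the 80. The alternatives tested 68 to 78 members. The 4 that did not pass were Rpl10l and Rpl39l, listed at 0 reads in all 39 libraries, Rpl3l with 66 reads in 2 libraries and Rps16 with 22 reads in 1 library.

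GenX is the trade name of a perfluorinated ether carboxylate, given here as its ammonium salt. Wildtype Crl:CD1(ICR) mice received 0.1 mg/kg, 0.5 mg/kg or 5 mg/kg of it per day by gavage, and control mice were given the vehicle, deionized water. Groups held 5 mice of one sex, and males (animal numbers ending in 01 to 05) and females (51 to 55) were compared with the controls of their own sex. Livers were fixed in formalin and embedded in paraffin, and 1 section per mouse was measured with TempO-Seq, in which paired probes that meet on an RNA are joined, amplified and sequenced. The age of the mice is not given in the sources used here. One female at 0.5 mg/kg, mouse 355, had 6711981 reads, under the limit of 9680193 (2 SD below the mean), and was dropped, which left 4 mice in that group. The other 39 libraries held 10341341 to 15562253 reads.

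Each ribosome joins a small subunit, which reads the messenger RNA, with a large subunit, which forms the peptide bond. The subunits are assembled in the nucleolus from ribosomal RNA and many proteins, most of them needed in a single copy. Their messenger RNAs are among the most abundant of the cell, and most start with a run of pyrimidines, the 5′ terminal oligopyrimidine tract, through which mTOR signaling controls how well they are translated. In the liver, ribosome content follows feeding, growth and regeneration. Several members have tasks of their own, as Rpl5 and Rpl11 do when they bind Mdm2 and so stabilize p53.

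Start sites were read from the RefSeq table of promoters (build GRCm38.p6), which matched 60 of the 80 members by symbol. A run of at least 7 C or T letters within 20 bases of an annotated start was found in 58.3% of these 60 genes and in 27.5% of the 27025 genes of the table. The letters CCGGAAG, a form of the site bound by ETS factors, were found on either strand between 250 bases before and 50 bases after a start in 36.7% of the members and 9.93% of all genes. TATAAA, searched on the gene's strand from 40 to 15 bases before a start, was found in 1.67% of members and 2.41% of all genes. Of the 14 matched members that passed the test in males at 5 mg/kg, 10 held a pyrimidine run, and of the 42 matched members tested and not called there 24 did. The windows below run from 15 bases before to 15 bases from the first annotated start, 5′ to 3′ on the gene's strand. They are shown for the members with the largest changes at 5 mg/kg that the table matched, Rps23, Rpl14, Rps10, Rpl10a and Rpl38 in males and Rps19 and Rpl22 in females. Capitals mark the run of pyrimidines that holds the start base or, where the start is a purine, the longest run in the window.
Rps23, chr13:90923107-90923136, plus strand: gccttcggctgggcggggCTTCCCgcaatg
Rpl14, chr9:120571502-120571531, plus strand: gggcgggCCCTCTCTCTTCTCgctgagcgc
Rps10, chr17:27635230-27635259, minus strand: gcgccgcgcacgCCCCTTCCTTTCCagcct
Rpl10a, chr17:28328456-28328485, plus strand: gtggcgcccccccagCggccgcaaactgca
Rpl38, chr11:114668565-114668594, plus strand: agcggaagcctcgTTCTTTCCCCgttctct
Rps19, chr7:24884577-24884606, plus strand: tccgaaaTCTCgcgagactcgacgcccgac
Rpl22, chr4:152325711-152325740, plus strand: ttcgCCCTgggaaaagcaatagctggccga
The start lay within a long run in Rpl14 (14 letters), Rps10 (13) and Rpl38 (10). The first annotated starts of Rps23, Rpl10a, Rps19 and Rpl22 did not lie within such a run. Rpl10a, Rps19 and Rpl22 have further annotated starts that are not shown, and an annotated start need not be the one used in liver.

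The share of a library's reads that fell on the 80 genes was taken first. It amounts to a scaling by library totals, so it also moves when other reads do. In control males it was 2.62, 2.85, 2.63, 2.63 and 2.42%. At 0.1 mg/kg the males had 2.23, 2.69, 2.40, 2.66 and 2.47%, and at 0.5 mg/kg 2.55, 2.50, 2.84, 2.68 and 2.92%. Both groups overlapped the controls. At 5 mg/kg the share was 3.23, 3.83, 3.34, 3.31 and 3.34%, above every other male. The group means were 2.63 ± 0.152% in controls and 3.41 ± 0.240% at 5 mg/kg (SD, n = 5), a ratio of 1.30.

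The females lay close to these values. Controls had 2.69, 2.41, 2.74, 2.28 and 2.43% of reads on the 80 genes, and the females at 0.1 mg/kg 3.06, 2.61, 2.81, 2.55 and 2.04%. At 0.5 mg/kg the share was 2.72, 2.61, 2.88 and 2.60%, and at 5 mg/kg 3.25, 2.95, 2.93, 3.23 and 3.22%. The 5 females at 5 mg/kg lay above all 5 control females, with means of 3.12 ± 0.161% against 2.51 ± 0.197% (SD, n = 5) and a ratio of 1.24, but 1 female at 0.1 mg/kg lay among them. Both subunits took part: the share on large subunit genes at 5 mg/kg was 1.28 times that of controls in males and 1.23 times in females, and that on small subunit genes 1.32 and 1.25 times.

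**Figure D1:**
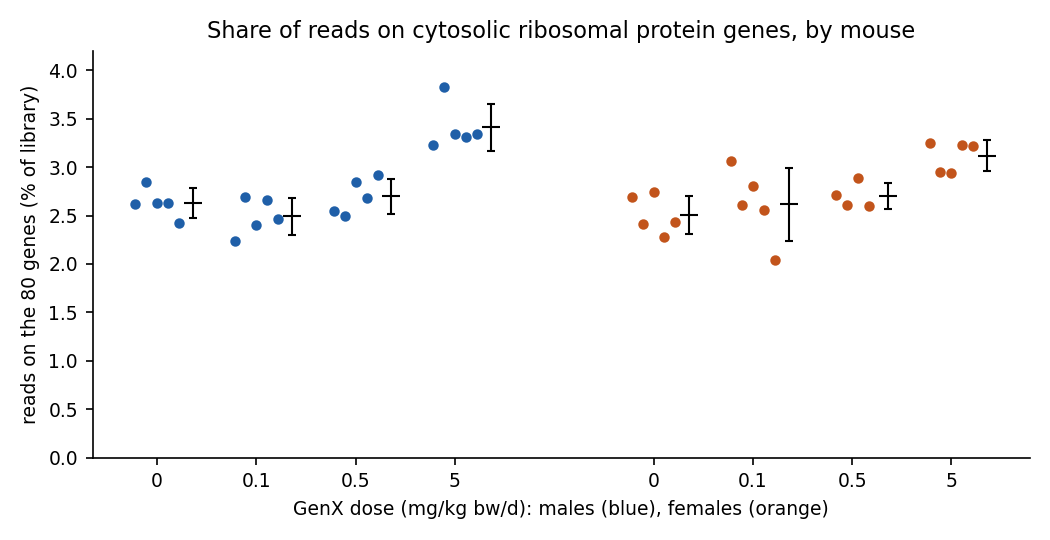
Reads on the 80 ribosomal protein genes as a percent of the library (vertical axis) by dose in mg/kg bw/d (horizontal axis), with one point per mouse and the group mean ± SD in black. All 5 males at 5 mg/kg, at 3.23 to 3.83%, lie above every other male, and the 5 females at 5 mg/kg, at 2.93 to 3.25%, lie above all control females.

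Other reads moved with this share. With library totals as the only scaling, males at 5 mg/kg had a median log2 fold change of 0.29 for the 76 tested members. For all tested genes the median was 0.25. In females at 5 mg/kg these medians were 0.28 and 0.03. The 20 most counted probes of the series took 22.6 ± 1.27% of reads in control males and 13.9 ± 1.45% in males at 5 mg/kg, and 18.5 ± 1.06% and 15.7 ± 2.26% in females (SD, n = 5). Counted over the reads outside these 20 probes, the members' share was 3.40 ± 0.164% in control males and 3.95 ± 0.208% at 5 mg/kg, and 3.08 ± 0.238% and 3.70 ± 0.160% in females, with no overlap in either sex. Estimated molecules per library, the total divided by the first peak of its counts, were 328100 ± 29680 in control males, 565500 ± 73080 in males at 5 mg/kg, 411900 ± 91280 in control females and 323900 ± 16140 in females at 5 mg/kg (SD, n = 5). Their part in the result was not tested. In whole sections fewer cells of a type and less RNA per cell cannot be told apart.

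In males at 5 mg/kg, 19 of the 76 tested members were higher than in controls and 1 was lower (edgeR's quasi-likelihood test, Benjamini-Hochberg adjusted p below 0.10 over 17877 probes), where 5.59% of all 12412 tested genes were higher and 3.75% lower. Of the large subunit 9 of 48 were higher, and of the small subunit 10 of 28 were higher and 1 was lower. The higher members were 25% of those tested. Members are well counted, so the 1185 genes that averaged at least 100 normalized counts (CPM, counts scaled to a common library size after TMM normalization) are set beside them. Of those genes 22% were higher and 21.5% lower, and of the 54 members at that level 35.2% were higher and 1.85% lower. The count of higher members fell from 19 to 10 when mouse 402 was left out, and to 9 when mouse 355 was kept in the fit. DESeq2 called 18 of 78 members higher and 5 lower, where 4.71% of all genes were higher and 4.08% lower. On estimated molecules edgeR called 20 of 68 members higher and 6 lower, where 17.3% of all genes were higher and 17.5% lower.

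Small subunit genes had the largest differences. Rps23, whose protein sits at the decoding centre of the small subunit, had normalized counts of 81.2, 65.5, 63.8, 49.9 and 85.6 CPM in control males and 200, 243, 209, 283 and 254 CPM in males at 5 mg/kg. No treated male came near the controls, and the gene rose by 1.78 on the log2 scale (SE 0.226, adjusted p = 5.86e-08). It lies at chr13:90922958-90924950 (GRCm38, GENCODE M21) on the plus strand.

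Rps20, a protein of the head of the small subunit (chr4:3831334-3835665, minus strand), had 242, 171, 149, 246 and 176 CPM in control males and 261, 484, 359, 347 and 387 CPM at 5 mg/kg. The groups did not overlap, although the lowest treated mouse was near the highest control, and the difference was 0.90 on the log2 scale (SE 0.179, adjusted p = 0.000313). Rps10, which lies near the messenger RNA on the small subunit and is mutated in some cases of Diamond-Blackfan anemia (chr17:27630418-27636669, minus strand), had 131, 121, 115, 145 and 156 CPM in controls. Males at 5 mg/kg had 206, 287, 224, 197 and 222 CPM, all above the controls, a rise of 0.77 (SE 0.195, adjusted p = 0.00695).

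Rps27a, which is made as a fusion with ubiquitin (chr11:29545846-29548109, minus strand), had 64.4 to 111 CPM in controls and 108 to 193 CPM at 5 mg/kg, which overlapped, and rose by 0.63 (SE 0.212, adjusted p = 0.0649). Further small subunit genes that rose were Rps12, Rps24, Rps13, Rps9 and Rps7, by 0.31 to 0.52.

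The 1 member that fell was also of the small subunit. Rps29, a small zinc-binding protein (chr12:69157722-69159186, minus strand), had 1256, 1423, 1438, 1412 and 1248 CPM in control males and 1170, 1208, 975, 1079 and 1003 CPM at 5 mg/kg. Every treated male was below every control, and the gene fell by 0.32 on the log2 scale (SE 0.111, adjusted p = 0.0814), a call that was lost when any of 6 of the 10 mice was left out, with adjusted p up to 0.194.

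Among the large subunit genes, Rpl14 (chr9:120571444-120574654, plus strand) had 164, 198, 228, 230 and 179 CPM in control males and 268, 358, 335, 385 and 377 CPM at 5 mg/kg. The groups did not overlap, and Rpl14 rose by 0.79 (SE 0.146, adjusted p = 0.000117). Rpl10a, a protein of the L1 stalk of the large subunit (chr17:28328471-28331033, plus strand), had 281, 377, 413, 386 and 320 CPM in controls and 527, 681, 686, 515 and 577 CPM at 5 mg/kg, a rise of 0.75 without overlap (SE 0.171, adjusted p = 0.0021).

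Rpl38, which mouse embryos need for the translation of Hox messenger RNAs (chr11:114668524-114672331, plus strand), had 438 to 667 CPM in control males and 631 to 1078 CPM at 5 mg/kg. One treated male lay among the controls, and the gene rose by 0.65 (SE 0.144, adjusted p = 0.00142). Rpl4, which lines the tunnel through which the new protein leaves, is the member with the most reads. It had 1440 to 1667 CPM in controls and 2069 to 2328 CPM at 5 mg/kg and rose by 0.48 (SE 0.104, adjusted p = 0.00108). The other large subunit genes that rose were Rpl12, Rpl37a, Rpl21, Rpl19 and Rpl23a, by 0.35 to 0.50.

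**Figure D2:**
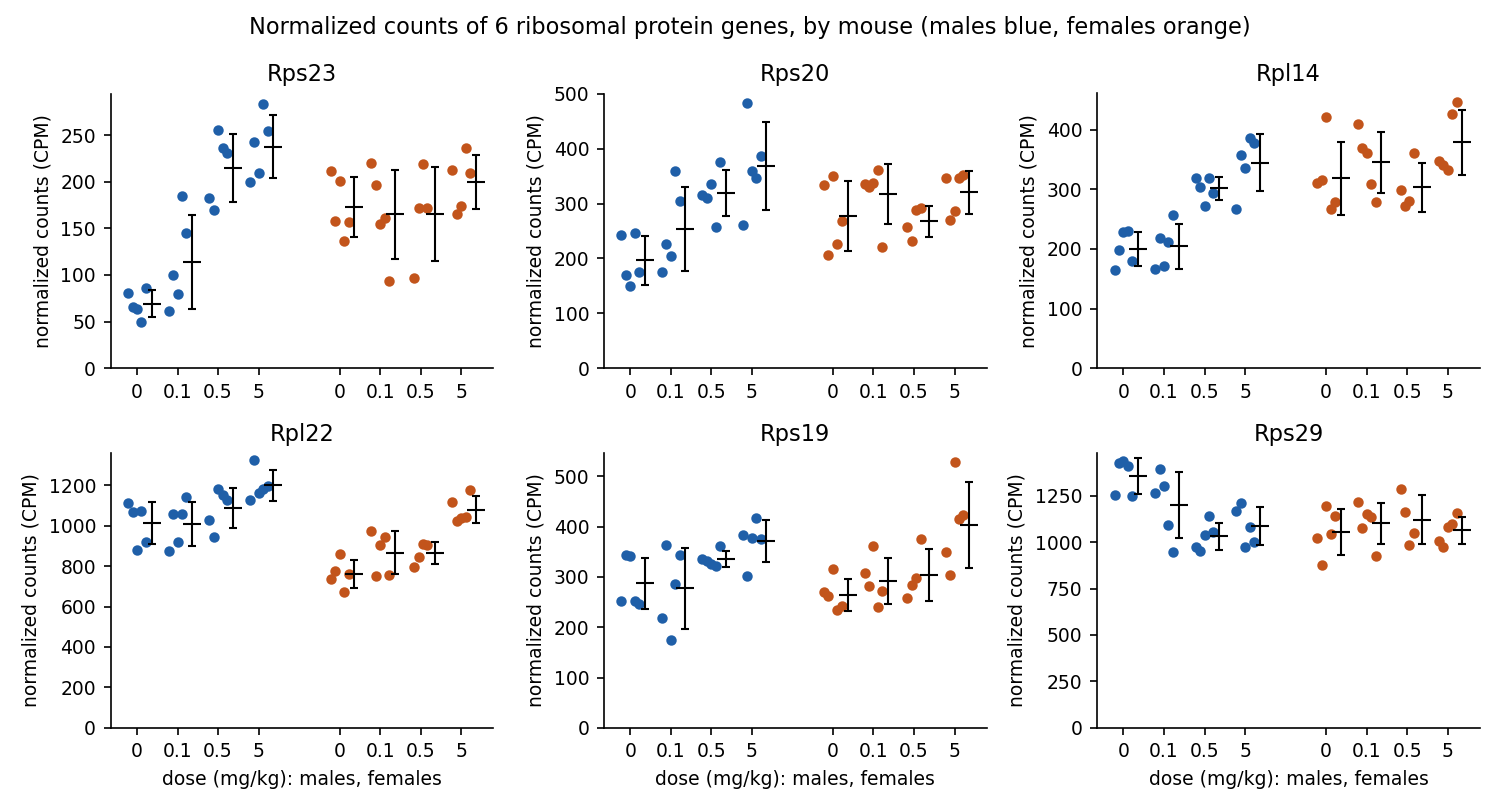
Normalized counts (CPM, vertical axes) of Rps23, Rps20, Rpl14, Rpl22, Rps19 and Rps29 by dose in mg/kg bw/d, with one point per mouse and the group mean ± SD in black. Control males are the lowest group for Rps23, at 49.9 to 85.6 CPM, and the highest for Rps29, at 1248 to 1438 CPM.

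In females at 5 mg/kg, 6 of the 76 members were higher and none was lower (edgeR), where 2.09% of all tested genes were higher and 2% lower. The count of lower members was also 0 at an unadjusted p below 0.05 and with DESeq2. Of the 54 members of at least 100 CPM, 11.1% were higher and none was lower, and of all 1185 genes at that level 12.5% were higher and 12.5% lower. The 6 genes came from both subunits, 3 from each, and with mouse 355 kept in the fit 1 of them was called.

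Rps19, the gene most often mutated in Diamond-Blackfan anemia (chr7:24884371-24889806, plus strand), had 270, 262, 316, 234 and 243 CPM in control females and 349, 303, 528, 416 and 423 CPM at 5 mg/kg. One treated female lay below the highest control, and the gene rose by 0.61 (SE 0.162, adjusted p = 0.0218), or to an adjusted p of 0.12 without mouse 453. Rps12 (chr10:23785183-23787275, minus strand) rose by 0.42, from 579 to 779 CPM in controls to 717 to 909 CPM (SE 0.118, adjusted p = 0.034), and the groups overlapped.

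Rpl22, which in infected human cells binds a small viral RNA (chr4:152325742-152334071, plus strand), had 735, 777, 861, 670 and 762 CPM in control females and 1119, 1023, 1036, 1042 and 1178 CPM at 5 mg/kg. The groups were well apart, and the gene rose by 0.50 (SE 0.108, adjusted p = 0.00187). Rpl23a, which lies beside the tunnel exit where the signal recognition particle docks (chr11:78180932-78183584, minus strand), had 792 to 1084 CPM in controls and 1053 to 1355 CPM at 5 mg/kg, with 1 treated female among the controls, and rose by 0.41 (SE 0.106, adjusted p = 0.0174). Rpl19 (chr11:98026710-98030492, plus strand) had 811 to 966 CPM in controls and 1031 to 1202 CPM at 5 mg/kg and rose by 0.33 (SE 0.107, adjusted p = 0.0957), a call that was lost when any of 8 of the 10 mice was left out and in 4 of 12 alternatives, with adjusted p up to 0.322.

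Called in both sexes were 4 members, among them Rps12, Rpl19 and Rpl23a, which is 21.1% of the 19 higher members of males and 66.7% of the 6 of females. All 19 had a positive fold change in females and all 6 had one in males. Over all 76 tested members, 57 had a positive fold change in males (75%, against 55.2% of all genes) and 64 in females (84.2%, against 47.3%). The members' fold changes ran from -0.61 to 1.78 in males and from -1.23 to 1.69 in females.

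**Figure D3:**
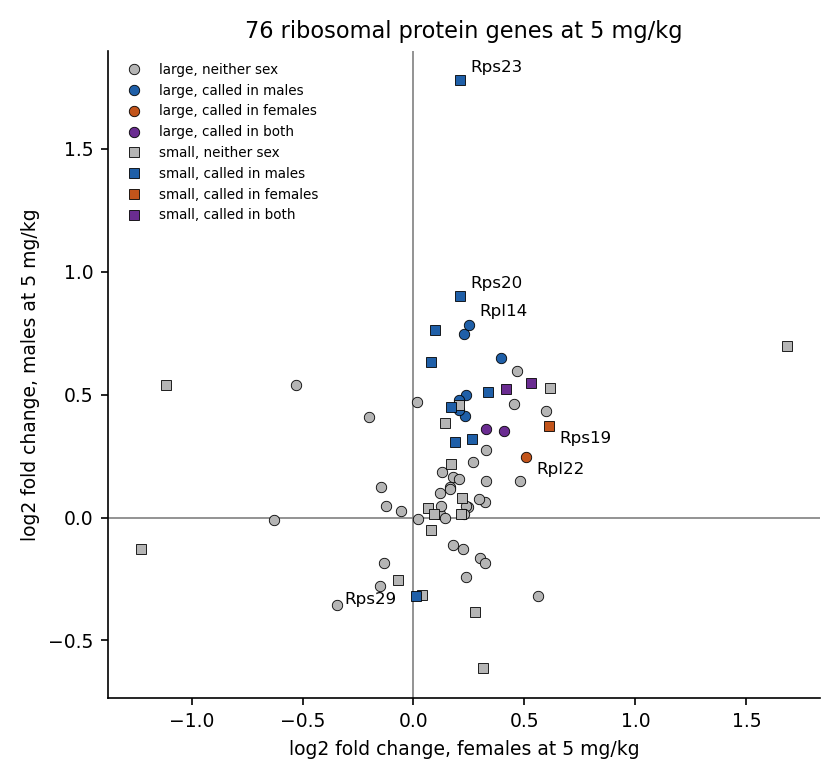
Log2 fold change against controls at 5 mg/kg in females (horizontal axis) and males (vertical axis) for the 76 tested members, circles for the large and squares for the small subunit, colored by the sex in which the gene was called. Rps23 stands apart from the other called genes with 1.78 in males and 0.21 in females.

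Lower doses moved few members. At 0.1 mg/kg no member was called in males (0.0403% of all genes higher, 0% lower) or in females (0% higher, 0% lower). At an unadjusted p below 0.05 in edgeR there were 3 members in males and 2 in females, and DESeq2 called none in either sex. At 0.5 mg/kg no member was called in females either (0.177% of all genes higher, 0.0242% lower), with 1 at an unadjusted p below 0.05 and none by DESeq2. In males at 0.5 mg/kg 4 members were higher and 2 lower, where 1.88% of all genes were higher and 0.733% lower. At 100 CPM and above, 7.41% of the members and 10.4% of all genes were higher.

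The 4 higher members at 0.5 mg/kg were Rps23, Rps20, Rpl14 and Rpl10a, each of which was also higher at 5 mg/kg against the same control mice. Rps23 had 183, 170, 255, 236 and 230 CPM in males at 0.5 mg/kg, all above the controls, a rise of 1.63 (SE 0.225, adjusted p = 2.29e-06). Rps20 had 316, 311, 335, 258 and 375 CPM (log2 fold change 0.70, SE 0.179, adjusted p = 0.0254), and Rpl14 had 319, 304, 273, 318 and 294 CPM (0.59, SE 0.146, adjusted p = 0.0173), both above all controls. Rpl10a, at 527, 472, 712, 367 and 568 CPM, overlapped the controls and rose by 0.57 (SE 0.171, adjusted p = 0.0778), a call that was lost when any of 7 of the 10 mice was left out and in 5 of 12 alternatives, with adjusted p up to 0.299.

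The 2 lower members were Rps29 and Rps28, both small proteins of the small subunit. Rps29 had 974, 953, 1036, 1140 and 1052 CPM at 0.5 mg/kg, below every control, and fell by 0.40 on the log2 scale (SE 0.111, adjusted p = 0.0543). Rps28 (chr17:33819027-33824562, minus strand) had 74.0, 74.3, 72.9, 76.9 and 63.0 CPM in control males and 23.7, 58.6, 50.7, 30.7 and 32.3 CPM at 0.5 mg/kg, and fell by 0.88 (SE 0.251, adjusted p = 0.0575). At 5 mg/kg Rps28 had 53.8, 58.9, 42.9, 34.2 and 46.1 CPM, again below all controls, with a log2 fold change of -0.61 that did not pass (adjusted p = 0.156). Both calls at 0.5 mg/kg were lost when mouse 102, 104 or 301 was left out.

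Males at 0.1 mg/kg were spread widely in these genes. Rps23 had 61.5, 99.5 and 79.4 CPM in mice 201 to 203 and 185 and 145 CPM in mice 204 and 205. Rps29 had 1264, 1394 and 1301 CPM in the first 3 and 1092 and 949 CPM in the other 2, and Rps28 64.8, 82.6 and 57.0 against 29.8 and 32.7 CPM. For all 3 genes the pair thus lay outside the range of the control males. Mouse 202 also lay above that range for Rps23 and Rps28, and mouse 203 below it for Rps28.

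The sexes were compared by an interaction, the log2 fold change in males minus that in females. Rps23 was the 1 member called at 0.5 mg/kg (0.234% of all genes higher, 0.0886% lower) and the 1 called at 5 mg/kg (0.709% higher, 0.483% lower), with differences of 1.70 (SE 0.325, adjusted p = 0.00621) and 1.57 (SE 0.313, adjusted p = 0.00399) by edgeR. DESeq2, with 78 members tested, called 5 at 0.5 mg/kg (1.01% of all genes higher, 0.707% lower) and 2 at 5 mg/kg (1.25% and 1.22%). On estimated molecules edgeR, with 68 members tested, called 2 (0.979% and 0.955%) and 5 (2.8% and 4.38%). At 0.1 mg/kg no member was called (0% higher, 0% lower), with 4 members at an unadjusted p below 0.05 and none by DESeq2. The females showed no such step in Rps23: they had 212, 158, 200, 137 and 157 CPM in controls, 220, 196, 155, 161 and 93.4 CPM at 0.1 mg/kg, 97.0, 171, 219 and 172 CPM at 0.5 mg/kg and 212, 165, 174, 236 and 210 CPM at 5 mg/kg. Every control female was above every control male, and the males at 0.5 and 5 mg/kg had values in and above the range of control females.

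A comparison of control females with control males was added after these values were seen. In it 3 members were higher in females and 7 lower (edgeR), where 2.37% of all genes were higher and 1.52% lower. Rps23, Rpl14 and Rpl4 were higher in females, by 1.32, 0.67 and 0.43 on the log2 scale (adjusted p = 7.96e-05, 0.00319 and 0.0115). Lower in females were Rps15, Rplp2, Rpl36al, Rplp0, Rpl22, Rps29 and Rpl13, with log2 differences from -0.93 to -0.36. Rps29 had 1021, 877, 1197, 1046 and 1139 CPM in control females, below all control males. Because the male controls enter both this comparison and those with dose, the values are given only side by side. For Rpl14, 310, 316, 421, 268 and 278 CPM in control females stand beside 268 to 385 CPM in males at 5 mg/kg. For Rpl22, the 1023 to 1178 CPM of females at 5 mg/kg stand beside 880 to 1113 CPM in control males.

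The balance of the subunits was measured within each library as the mean log2 CPM of the 48 large subunit genes minus that of the 28 small subunit genes, which no scaling of libraries can move much. It was 0.21, 0.05, 0.29, 0.04 and 0.33 in control males and -0.04, 0.15, 0.22, -0.05 and 0.23 at 5 mg/kg, which overlapped. In females it was 0.02, 0.13, -0.12, 0.23 and 0.17 in controls and 0.15, 0.18, 0.03, 0.06 and 0.20 at 5 mg/kg, which overlapped as well. The difference from controls was -0.10, -0.07 and -0.08 at 0.1, 0.5 and 5 mg/kg in males and -0.02, 0.01 and 0.04 in females. Each was smaller than the pooled SD between mice, which was 0.11 to 0.19, so no shift of the balance was larger than the spread between mice at any dose. The mean weighs all members alike, also the 22 that averaged under 100 CPM, the lowest at 1.56 CPM, and noise in these enters the spread.

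The median gene of each subunit gave another picture in males. There the median log2 fold change at 5 mg/kg was 0.12 for large and 0.35 for small subunit genes, while in females it was 0.23 and 0.20. Among members of at least 100 CPM it was 0.15 for 35 large and 0.37 for 19 small subunit genes in males, and 0.24 and 0.19 in females. Of these members 25.7% of the large and 52.6% of the small subunit were higher in males, beside 22% of all genes at that level. In females 8.57% and 15.8% were higher, beside 12.5%. With the median level over members in place of the mean level, the difference of the subunits in males was lower than in controls by 0.43 at 5 mg/kg and by 0.39 at 0.5 mg/kg, so the contrast of subunits depended on which average was taken.

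**Figure D4:**
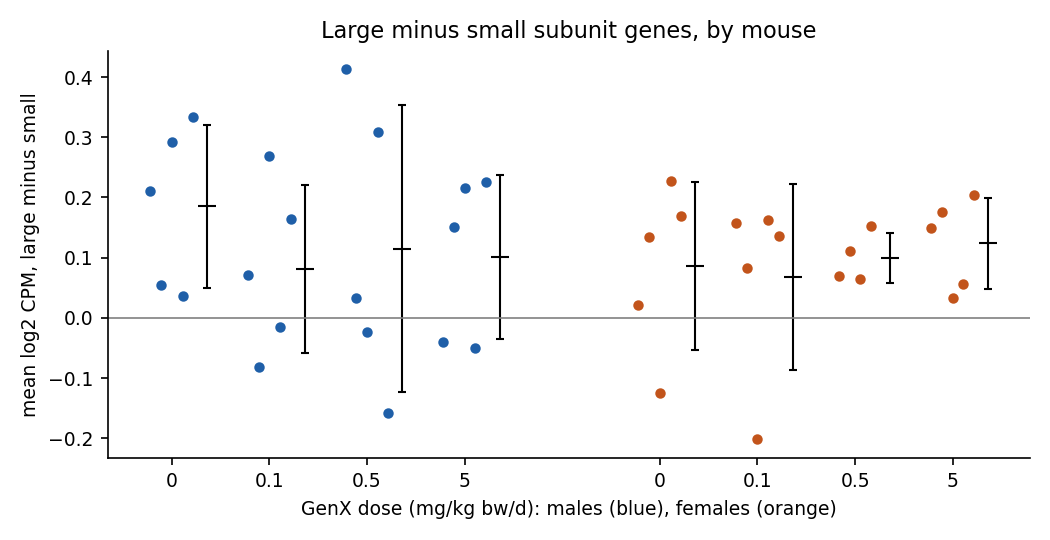
Mean log2 CPM of the 48 large minus that of the 28 small subunit genes (vertical axis) by dose in mg/kg bw/d, with one point per mouse and the group mean ± SD in black. The groups overlap at each dose in both sexes.

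Scaling decided how many members were called in males at 5 mg/kg. A scaling factor moves all genes of a library together, so comparing scalings cannot test the distance of the members from other genes. The 6 scalings of the libraries compared were TMM, TMM set without the members, library totals, totals without the 20 most counted probes, upper quartile factors and DESeq2's size factors. The median log2 fold change of the members in males at 5 mg/kg was 0.15 under TMM and ranged from 0.08 under DESeq2's size factors to 0.29 under library totals. The median of all tested genes moved alongside, from 0.04 to 0.25, a shift of 0.21. The members' median stayed 0.04 above that of all genes under each of the 6. For the 54 members of at least 100 CPM alone, the median stayed 0.17 above that of all genes at that level.

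The count of members higher in males at 5 mg/kg went from 9 with upper quartile factors and 10 with DESeq2's size factors to 17 without the top probes, 19 under TMM and 25 under library totals. The split of higher against lower was 19 and 1 under TMM, 9 and 2 under upper quartile factors, 10 and 2 under DESeq2's size factors, and 25 and 0 under library totals. Under all 6 scalings 9 genes rose, among them Rpl10a, Rpl14, Rpl38, Rpl4, Rps10, Rps12, Rps20 and Rps23. Rps29 kept its negative fold change under each of them but lost its call under library totals.

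In females at 5 mg/kg the members' median was 0.21 under TMM and 0.21 to 0.28 under the 6 scalings, where that of all genes was -0.01 to 0.03. The members' median lay 0.22 to 0.25 above that of all genes. For the 54 members of at least 100 CPM alone, the median lay 0.22 above that of all genes at that level. Between 6 and 10 members were called, and the 6 called under TMM were called under each scaling. At 0.1 and 0.5 mg/kg the members' median was within 0.10 of 0 in both sexes under all 6 scalings.

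**Figure D5:**
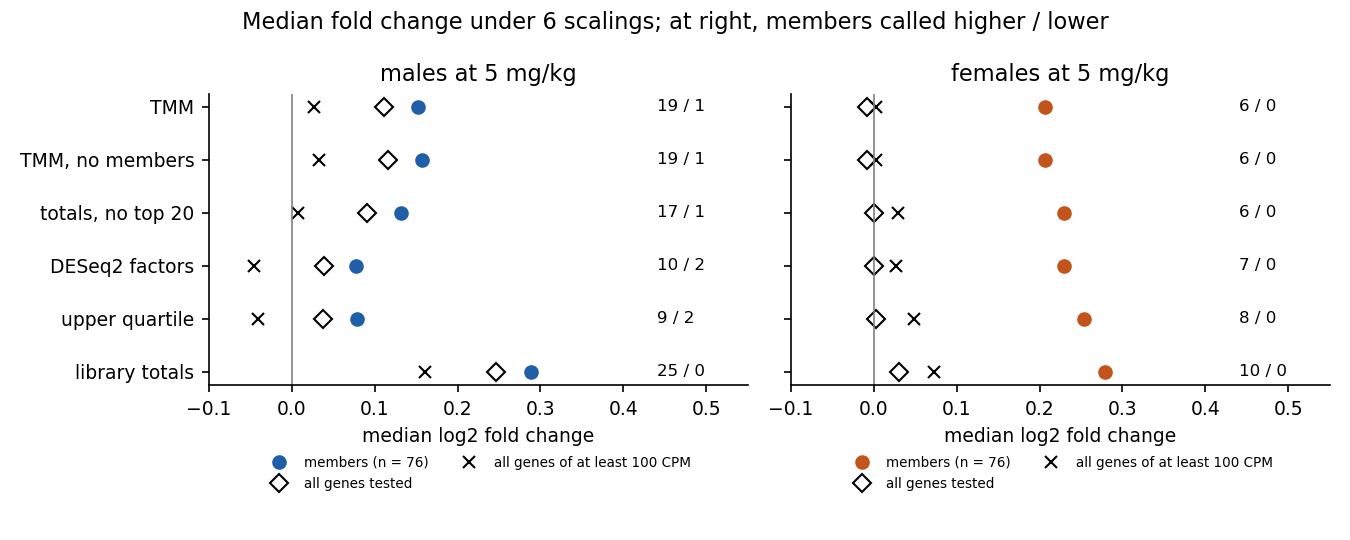
Median log2 fold change at 5 mg/kg (horizontal axes) of the 76 members (filled circles), of all tested genes (diamonds) and of all genes of at least 100 CPM (crosses) under 6 scalings of the libraries, with the members called higher / lower printed at the right. In males the 3 medians shift together, since a change of scaling moves all genes of a library by nearly the same amount. In females they shift as well, but by less. The members' median ranges from 0.21 to 0.28, that of all tested genes from -0.01 to 0.03 and that of all genes of at least 100 CPM from 0.003 to 0.073.

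A second probe was tested for 15 of the members, 17 probes in all, which gives a check on single probes. In males at 5 mg/kg 10 of the 17 had the sign of the gene's most counted probe, and in females 14 of 17. The second probes of the genes called in males, which were Rps9, Rpl10a, Rps13, Rps12 and Rpl19, did not pass, and their log2 fold changes ran from -0.11 to 0.16. Those of Rps13 and Rpl19 were poorly counted, at 9.65 ± 6.66 and 22.2 ± 9.93 CPM in control males (SD, n = 5). With SE of 0.88 and 0.40 they are a weak check. For Rps12 the second probe had 0.04 where the first had 0.52, at 228 ± 17.4 CPM in control males and 235 ± 19.9 CPM at 5 mg/kg (SD, n = 5). In females both tested probes of Rps19 passed, with log2 fold changes of 0.61 and 0.47 (adjusted p = 0.0218 and 0.0697). The second probes of Rpl22, Rps12 and Rpl19 had 0.28, 0.11 and 0.68 in females and did not pass. That of Rpl19 was poorly counted here too, at 14.2 ± 6.01 CPM in control females (SD, n = 5).

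Probes of ribosomal protein genes can also bind the RNA of near-identical copies. Pseudogenes were counted only where the annotation names them by the member's symbol followed by -ps and a number, so copies under other names were missed. At least 1 was found for 57 of the 80 members, with 24 for Rps12 and 10 for Rpl19. Rps20, Rpl4 and Rps9 have none named in this way, and Rps23 has 2. Counts of the members with copies are uncertain at least to that extent.

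Rps27l, a paralog of Rps27 that p53 induces, differed by probe. Its second probe had 64.5, 29.8, 27.4, 37.4 and 55.4 CPM in control males, 112, 137, 111, 82.9 and 121 CPM at 0.5 mg/kg and 89.5, 109, 124, 105 and 158 CPM at 5 mg/kg, both groups above all controls. The rises were 1.39 (SE 0.267, adjusted p = 0.000999) and 1.45 (SE 0.267, adjusted p = 0.000104). The most counted probe had 0.13 at 0.5 mg/kg and 0.46 at 5 mg/kg and did not pass (adjusted p = 1 and 0.154). Rps27 itself had a log2 fold change of -0.32 at 5 mg/kg in males (adjusted p = 0.219).

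No other pair of paralogs had a called member at 5 mg/kg in males. The log2 fold changes were 0.41 for Rpl22l1 beside 0.25 for Rpl22, -0.28 for Rpl36al beside -0.32 for Rpl36a, and 0.47 for Rpl7l1 beside 0.08 for Rpl7. Rpl7l1 and Rpl36a were poorly counted, with 2.93 ± 2.98 and 19.6 ± 7.53 CPM in control males (SD, n = 5). Rpl3, Rpl10, Rpl39 and Rps4x, the common forms of Rpl3l, Rpl10l, Rpl39l and Rps4l, had 0.46, 0.12, 0.15 and -0.13, none of them called. Rps4l was not analysed here.

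The stalk proteins Rplp0, Rplp1 and Rplp2, which recruit the elongation factors, were not called at any dose. Rplp0 had 287, 296, 334, 271 and 366 CPM in control males and 250, 197, 284, 284 and 301 CPM at 5 mg/kg, and a log2 fold change of -0.24 (SE 0.146, adjusted p = 0.385). In females it was 0.24 (SE 0.146, adjusted p = 0.502). Rplp2 had -0.18 in males and 0.32 in females, and Rplp1 was poorly counted, at 4.25 ± 5.23 CPM in control males (SD, n = 5). Of the members with signaling roles, Rpl5 and Rpl11, which bind Mdm2, had 0.01 and 0.28 in males and 0.23 and 0.33 in females. Rps6, the substrate of S6 kinase, had 0.22 in males and 0.17 in females. None of these passed the test.

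Genes that act with the ribosome were counted from lists. At 5 mg/kg 5.59% of all tested genes were higher and 3.75% lower in males, and 2.09% and 2% in females. Of 4 ribosomal proteins outside the naming rule none was called at 5 mg/kg in either sex, and Rpsa, Fau and Rack1 had -0.30, 0.18 and -0.29 in males and 0.17, 0.02 and 0.25 in females. Of 37 tested genes of ribosome assembly 5 were higher and none lower in males at 5 mg/kg, with a median log2 fold change of 0.43 beside 0.11 for all genes. Among them were Ncl (nucleolin; 0.83, adjusted p = 0.00764), Mybbp1a (0.73, adjusted p = 0.0747), Eif6, which keeps the subunits apart (0.55, adjusted p = 0.0569), and Npm1 (nucleophosmin; 0.50, adjusted p = 0.0135). In females at 5 mg/kg none of the 37 was called, with a median of 0.08.

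Of 26 translation initiation factors 6 were higher and 2 lower in males at 5 mg/kg. Of all tested genes 5.59% were higher and 3.75% lower there, and of all genes of at least 100 CPM 22% and 21.5%. The listed genes were not matched to other genes by level. Eif1, which guides the choice of the start codon, rose by 1.03 (adjusted p = 0.00262), Eif2s2, a subunit of the factor that carries the initiator tRNA, by 0.76 (adjusted p = 0.00135) and Eif4a2, an RNA helicase, by 0.66 (adjusted p = 0.00278). Eif3i fell by 1.02 on the log2 scale (adjusted p = 0.0695). At 0.5 mg/kg 3 of the 26 were higher in males, Eif1, Eif2s2 and Eif5, where 1.88% of all genes were higher. Of 9 elongation factors and nascent chain proteins Eef1b2, Eef1g and Btf3 were higher in males at 5 mg/kg, by 0.55, 0.50 and 0.35 (adjusted p = 0.053, 0.0424 and 0.091). None of 15 regulators of ribosomal protein synthesis was called, and in females at 5 mg/kg no gene of these lists was.

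Other large complexes are set beside the members for scale. Of 74 tested mitochondrial ribosomal proteins males at 5 mg/kg had 5 higher (6.76%) and females 3 (4.05%), with none lower. Of all tested genes 5.59% were higher in males and 2.09% in females. Of 47 tested proteasome subunits 7 were higher in males (14.9%) and 2 in females (4.26%), again with none lower. The median log2 fold changes in males were 0.16 for mitochondrial ribosomal proteins and 0.38 for the proteasome, beside 0.15 for the members and 0.11 for all genes. In females they were 0.15 and 0.34, beside 0.21 for the members and -0.01 for all genes.

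Hepatocyte markers, among them Alb and Apoa1, were read in all 39 libraries. The 5 markers, whose sum is mostly Apoa1, summed to 29050 to 35040 CPM in control males and 19260 to 25840 CPM at 5 mg/kg, and to 22890 to 38730 and 15750 to 25870 CPM in females, and 3 of the 5 were lower in each sex. The study describes a fall of Apoa1 in rodents when the receptor PPARα is activated, and reports it in these mice. The sum therefore need not follow hepatocyte content. The 5 stellate cell markers summed to 64.2 to 110 CPM in control males and 165 to 206 CPM at 5 mg/kg, with 2 of 5 higher, and the 5 proliferation markers to 0 to 2.79 and 28.9 to 75.96 CPM, with 1 of 5 higher. In females at 5 mg/kg the proliferation markers summed to 0 to 45.9 CPM, and none was called. The 8 lymphocyte markers summed to at most 53.1 CPM in any library, and of the 7 Kupffer cell and macrophage markers Timd4 was at 0 reads in all libraries. Of the endothelial markers 1 of 5 was lower in males at 5 mg/kg, and no lymphocyte, Kupffer cell, cholangiocyte or erythroid marker was called in either sex at that dose. Of all tested genes 5.59% were higher and 3.75% lower in males at 5 mg/kg, and 2.09% and 2% in females. The part of the marker shifts in the members' differences was not tested.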

How the data were processed

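The authors deposited whole-number counts of reads for 30146 probes and 40 libraries, not normalized. The submitters' processing notes name bcl2fastq 2.17.1.14, Bowtie and mm10. As in the study's methods, a library below 2 SD under the mean depth was left out, and treated mice were compared with controls of their sex at an FDR of 10%. The tests used here were those of edgeR 4.0.16 in R 4.3.3 (TMM, default filter on low counts, quasi-likelihood F-test, 1 coefficient for each of 8 groups, no covariates), two-sided and adjusted after Benjamini and Hochberg over 17877 probes. P values measure the spread between mice. CPM are counts scaled to a common library size after TMM normalization, and log2 CPM use a prior count of 2. The procedure was tested on simulated data with larger changes than those of most called members, so that test does not cover changes as small as theirs. DESeq2 1.42.0, other scalings and filters, summed probes, estimated molecules (reads divided by the first peak of the counts, smoothed with a Gaussian of 2 reads) and leaving out each mouse were alternatives.

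The members, the gene lists and the tests were chosen with earlier results of these data known. Genes named are, for each comparison, up to 8 called members with the largest absolute log2 fold change, members whose response differed between the sexes, the stalk proteins, paralog pairs, Rpl5, Rpl11, Rps6 and Rps27a, the members with the most reads, among them Rpl4 and Rps9, and up to 4 called genes of each list. Other called members are named after their values were seen, so that the counts are complete. Some genes that enter the counts are not reported here by name. Probes differ in efficiency, so counts were not compared between genes. Gene positions are from GENCODE M21 (GRCm38), and figures were drawn with matplotlib 3.10.9.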

Additional observations from a re-analysis of the deposited data

Results flagged for a closer look

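Rps23 responded differently in the sexes: its log2 fold change in males minus that in females was 1.70 at 0.5 mg/kg and 1.57 at 5 mg/kg, tested by the interaction in edgeR (adjusted p = 0.00621 and 0.00399). All 5 treated males at each of these doses were above all 5 control males.

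In all, 9 values of a single mouse stood far from the rest of its group among 144 groups of values tested, and chance alone flags about 1 in 20 groups. In males at 5 mg/kg mouse 402 had 3.83% of reads on the members, where the other 4 had 3.23 to 3.34%. Mouse 253, a female at 0.1 mg/kg, had a large minus small subunit difference of -0.20, where the others had 0.08 to 0.16, and 66.3 CPM for Rps28, where they had 34.3 to 42.2. Rps28 also had a lone value of 63.0 CPM in control male 105 and of 59.0 CPM in control female 155. The remaining lone values were 779 CPM for Rps12 in control female 153, 791 CPM for Rpl19 in male 201 at 0.1 mg/kg, 221 CPM for Rps20 in female 255 at 0.1 mg/kg and 1053 CPM for Rpl23a in female 452 at 5 mg/kg.

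Mouse 355, the female at 0.5 mg/kg left out for its depth, had 3.05% of its reads on the members, above the 2.28 to 2.74% of control females. Its 20 most counted probes took 5.24% of its reads.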

How the results depend on the processing

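No paired analysis was possible because the animal numbers are unique to each mouse. With DESeq2's size factors or upper quartile factors in edgeR, the members higher in males at 5 mg/kg were 10 and 9 and the lower ones 2 and 2. With library totals there were 0 lower members in males, their median log2 fold change was 0.289, and 10 members were higher in females at 5 mg/kg. The DESeq2 test called 4 members lower in males at 0.5 mg/kg, and at 5 mg/kg 5 lower in males and 11 higher in females, with sex differences in 5 members at 0.5 mg/kg and 2 at 5 mg/kg. Estimated molecules gave 4, 6, 11, 2 and 5 for the same counts. The share of all genes called differed as well. In males at 5 mg/kg 4.08% of all genes were lower by DESeq2 and 17.5% on estimated molecules. In females at 5 mg/kg 2.46% and 9.51% were higher. With mouse 355 kept (all 40 libraries), 1 member was higher and 0 lower in males at 0.5 mg/kg, and the highest dose had 9 higher and 0 lower in males and 1 higher in females. Without the filter on low counts no member (0) was lower in males at 5 mg/kg, and the fit on only the groups compared gave 2 lower there and 3 higher in females. The cause of these shifts was not tested.

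Outside the 20 most counted probes the members' share of reads was 3.254, 3.457 and 3.954% in males at 0.1, 0.5 and 5 mg/kg and 3.206, 3.32 and 3.695% in females. With all probes of each member it was 2.719, 2.944 and 3.71% in males, and the females had 2.936% at 0.5 mg/kg and 3.379% at 5 mg/kg. These follow from the smaller denominator and the added probes. With the median over members, the large minus small subunit difference was -0.388 at 0.5 mg/kg and -0.432 at 5 mg/kg for males and 0.193 at 0.5 mg/kg for females.

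Leaving out each mouse in turn gave 10 to 19 members higher and 0 to 1 lower in males at 5 mg/kg, the 10 without mouse 402, and 0 to 2 lower in males at 0.5 mg/kg. Of the calls of single members followed, 28 in all, 245 of 299 such repeats stayed past the threshold and none changed direction. The calls that depended on single mice were Rpl10a, Rps28 and Rps29 at 0.5 mg/kg (lost without 7, 5 and 6 of 10 mice), Rps9, Rps27a and Rps29 in males at 5 mg/kg (8, 6 and 6) and Rpl19 in females (8). Rps20 at 0.5 mg/kg was lost without mouse 103, Rpl19 in males without 105 or 402, Rpl23a in males without 402 or 403, Rps12 in females without 152 or 155, and Rps19 in females without 453. Keeping mouse 355 ended 15 of the 28 calls. An alternative chosen after seeing the data, without males 204 and 205, ended 1, that of Rpl19 in females. Depth limits members under about 5 CPM, such as Rplp1 and Rpl7l1, whose SE exceeded 1.5.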
